A study of Rattus norvegicus with 23 samples.

Results

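The neuropeptide precursor genes Npy, Gal, Vip, Vgf, Adcyap1 and Cck were followed in rat dorsal root ganglia after a cut of the sciatic nerve. They were chosen by gene symbol, as every array probe annotated to 1 of these 6 of the 4153 genes on the array. This gave 7 of 5088 probes, with 2 probes for Vgf (1D09 and 52D09) and 1 for each other gene. RNA came from the L4 and L5 ganglia of Long-Evans rats operated on postnatal day 20 to 24 and kept for 4, 8, 12, 18, 24, 48, 148 or 296 h. Each of 23 arrays held RNA of lesioned ganglia, labelled with Cy5, together with RNA of intact ganglia, labelled with Cy3. Every time up to 148 h had 3 arrays and 296 h had 2. The source label describes the material as cultured cells, whereas the surgery text describes ganglia taken from the animal, and the surgery text was followed here. Sex was not labelled, and nothing says from which animals the intact RNA came or whether replicate arrays came from separate animals. The p-values therefore measure only the spread between these samples, which may be technical.

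Neuropeptides are cut from larger precursor proteins in the secretory pathway, stored in dense-core vesicles and released to act on G protein-coupled receptors. Many uninjured sensory neurons make substance P and CGRP. When their peripheral axon is cut, sensory neurons are known to change the set of peptides they make, and galanin, neuropeptide Y, VIP and PACAP belong to the textbook examples of this switch. The VGF precursor yields several peptides and is induced by neurotrophins, and cholecystokinin is a peptide of gut and brain. A sciatic cut before a central lesion, the conditioning lesion, is a standard way to raise the growth capacity of these neurons.

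All values below are log2 ratios of lesioned over intact, so that 0 means equal signal and 1 means a doubling. Array values are given in the order of replicate 1, 2 and 3. A fitted value is the limma estimate with its standard error (SE), in which noisier arrays count less, except at 296 h. A value was called when its Benjamini-Hochberg adjusted p, over all probes tested in that comparison, was under 0.05. On 17 arrays 4945 to 5011 probes had a ratio, and on the other 6 only 2063 to 4353 did. These sparse arrays comprised every array of 148 h, replicates 2 and 3 of 48 h and replicate 2 of 296 h. Their ratios also spread more, with a standard deviation (SD) over probes of 1.22 to 1.61 against 0.506 to 0.913 on the full arrays. The full and the sparse array of 296 h had SDs of 0.549 and 1.6 but the same weight of 0.39. A fitted value from both is therefore their plain mean. At 148 h the time and the sparse class cannot be told apart. In ganglion RNA, more transcript per cell and more cells of a type cannot be told apart either.

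Npy and Gal stayed near equal signal through 24 h and stood far above it from 48 h on. Of the 54 tests of a member probe at a single time, 12 passed, 10 of them higher and 2 lower after the lesion, and none was at 4, 8 or 12 h. Of the 21 tests at those 3 times, 7 had an unadjusted p under 0.05 and limma with equal weights called 0 as well. Npy, Gal and probe 1D09 of Vgf made up 9 of the 10 higher calls. Among all tested probes 1.85%, 1.26% and 3.61% passed at 4, 8 and 12 h, 2.07% at 18 h, 6.19% at 24 h, 3.96% at 48 h, 8.75% at 148 h and 0.106% at 296 h. With equal weights for all arrays 28.7% passed at 148 h and 8.65% at 296 h.

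Neuropeptide Y acts on receptors that dampen transmitter release. Npy had log2 ratios of 0.41, 0.03 and -0.23 at 4 h, -0.33, 0.15 and 0.26 at 8 h and -0.59, -0.36 and -0.43 at 12 h. At 18 h it had 0.07, 0.12 and -0.36, and at 24 h 0.45, 0.21 and 0.18. These 15 arrays lay on both sides of 0, and all of 12 h were below it. At 48 h the values were 2.51 and 3.10, with no value on replicate 3. At 148 h they were 7.38, 4.79 and 4.92, and at 296 h 3.98 and 5.34. All 7 late arrays stood above all 15 earlier ones. The fitted log2 ratio of Npy was 2.78 ± 0.39 (SE, n = 2, adjusted p = 0.000538) at 48 h, 5.36 ± 0.41 (n = 3, adjusted p = 7.58e-07) at 148 h and 4.66 ± 0.49 (n = 2, adjusted p = 4.07e-05) at 296 h, or 6.87-fold, 41.1-fold and 25.3-fold. It was the highest of the 3187 probes tested at 148 h and of the 2833 tested at 296 h.

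Galanin, a peptide that modulates pain signalling, went the same way on fewer arrays. Gal had log2 ratios of 0.21, -1.06 and -0.39 at 4 h, 0.58, -0.26 and 0.38 at 8 h and -0.65, -0.29 and 0.08 at 12 h. It had 0.19, 0.44 and 0.11 at 18 h and 0.51, 0.33 and 0.11 at 24 h, so that all 6 arrays of these times were slightly above 0. At 48 h the values were 4.28, 3.89 and 5.48. At 148 h replicates 2 and 3 had 4.38 and 5.58, and replicate 1 had no value. At 296 h the 1 array with a value, replicate 1, had 2.00, below every array of 48 and 148 h and above every earlier array. The fitted log2 ratio of Gal was 4.35 ± 0.40 (SE, n = 3, adjusted p = 1.59e-05) at 48 h and 4.96 ± 0.51 (n = 2, adjusted p = 4.52e-05) at 148 h, or 20.3-fold and 31.1-fold. With a single array, 296 h was not tested for Gal.

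The order of the times was tested step by step, each time minus the one before. Of 47 such tests 2 passed, both from 24 to 48 h, for Gal and Npy. Gal differed by 4.07 ± 0.45 (log2 difference, SE, n = 6, adjusted p = 0.000547) and Npy by 2.53 ± 0.44 (n = 5, adjusted p = 0.0185). Gal had the largest difference of the 4419 probes tested in this step and Npy the tenth, where 0.249% passed. For Npy the adjusted p rose to 0.263 when the arrays were scaled to equal spread and to 0.156 with the array class as a block, and it was 0.0616 and 0.0755 without replicate 2 or 3 of 24 h. The further difference of Npy between 48 and 148 h was 2.58 ± 0.56 (n = 5, 95% interval 1.39 to 3.77, adjusted p = 0.102, and 0.0161 with equal weights), and that between 148 and 296 h was -0.70 ± 0.64 (n = 5, adjusted p = 1). For Gal 148 minus 48 h was 0.61 ± 0.65 (n = 5, 95% interval -0.76 to 1.98). Both arrays of Npy at 48 h lay below every array of 148 and 296 h.

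**Figure D1:**
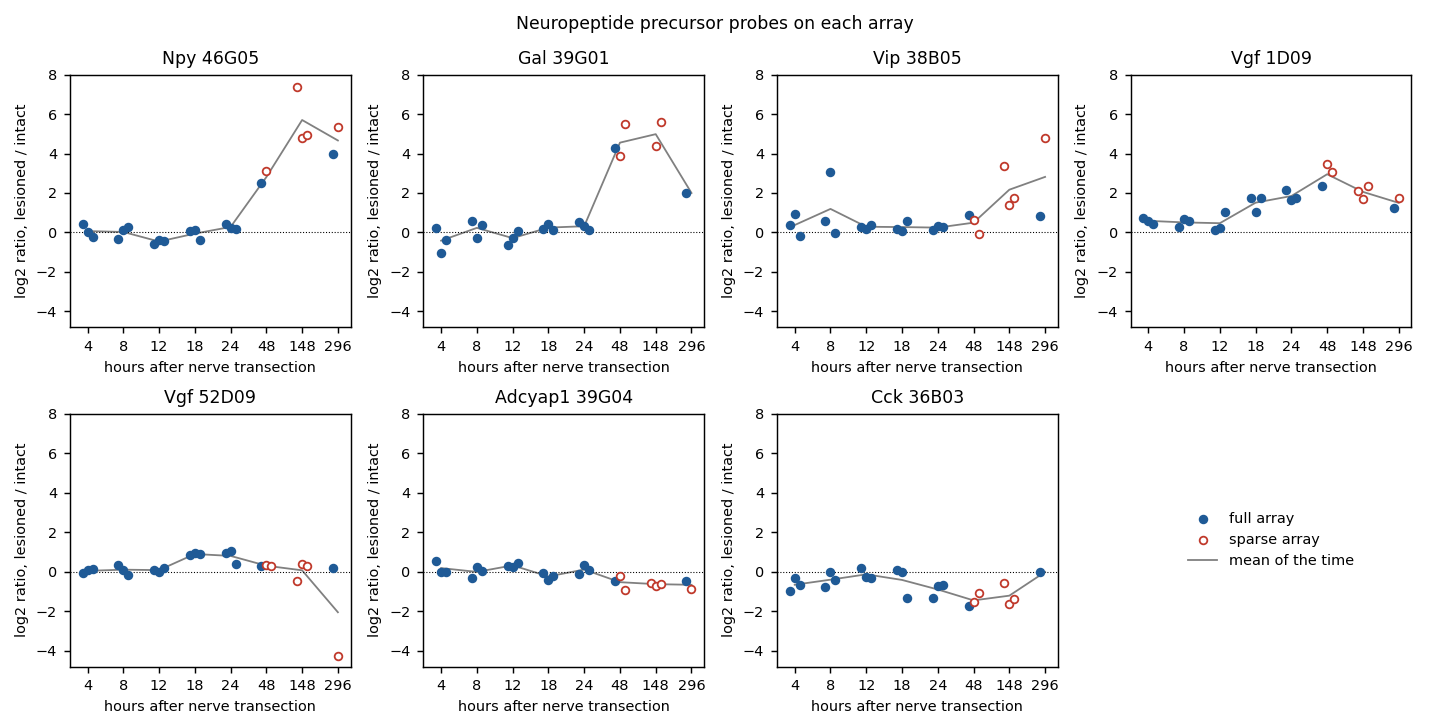
Log2 ratio of lesioned over intact ganglia (vertical axis) at each time (horizontal axis, hours after the cut) for the 7 probes, 1 panel a probe. Each point is 1 array, full arrays filled and sparse arrays open, and the line joins the means of the times. Npy and Gal lie near 0 through 24 h and reach 7.38 and 5.58 later, Vgf probe 1D09 already lies between 1.03 and 2.13 at 18 and 24 h, and Vgf probe 52D09 has a single array at -4.28.

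Since Npy and Gal were the members that differed most between the early and the late arrays, the 250 bases before their start sites are shown. They come from RefSeq (build GRCr8), in which 5 of the 6 genes had an entry, and capitals mark matches to searched motifs. The motifs were the cAMP response element TGACGTCA, its core TGACG, which lies within the full element, the AP-1 motif TGANTCA, the STAT motif TTCNNNGAA and the TATA motif TATAAA, all on both strands. Npy lies at chr4:80211861-80212110 on the plus strand and Gal at chr1:210084573-210084822 on the minus strand, and both sequences run 5′ to 3′ toward the gene.
Npy: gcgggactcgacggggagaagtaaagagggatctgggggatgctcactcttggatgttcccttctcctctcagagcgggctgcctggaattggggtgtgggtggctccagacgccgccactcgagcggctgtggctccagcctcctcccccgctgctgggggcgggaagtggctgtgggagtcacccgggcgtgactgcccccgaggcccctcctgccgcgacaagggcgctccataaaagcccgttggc
Gal: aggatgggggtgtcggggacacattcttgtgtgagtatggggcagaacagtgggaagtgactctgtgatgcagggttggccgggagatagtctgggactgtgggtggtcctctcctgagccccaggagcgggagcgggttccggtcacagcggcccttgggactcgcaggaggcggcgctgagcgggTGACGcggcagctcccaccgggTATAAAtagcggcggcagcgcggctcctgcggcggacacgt
None of these letters occurs in the Npy window. Counting back from the start site, the Gal window holds the core at -63 to -59 and the TATA motif at -41 to -36, letters found in 18.2% and 12.9% of the 33469 RefSeq windows of the same length. Vgf has the whole element and Vip its core. Their windows overlap the annotated gene, since other transcripts begin upstream, so only 30 bases around the site are shown, chr12:25277092-25277121 on the minus strand for Vgf and chr1:44470371-44470400 on the plus strand for Vip.
Vgf: tgaatgaacatTGACGTCAatggggcgggg
Vip: ggatcaccactgTGACGtctttcgaggagc
The whole element of Vgf lies at -90 to -83 and occurs in 1.59% of all windows. The core of Vip lies at -97 to -93. The AP-1 and STAT motifs, held by 6.34% and 7.67% of windows, had no match in the 5 member windows. A match or its absence describes these letters in these windows and says nothing of a factor's binding.

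Vgf was called at 18 h, and the timing of the members was not compared by a test. On probe 1D09 it had log2 ratios of 0.75, 0.58 and 0.44 at 4 h, 0.27, 0.69 and 0.57 at 8 h and 0.11, 0.24 and 1.06 at 12 h. All 9 early arrays were above 0, without a call (adjusted p = 0.233, 0.278 and 0.0634). At 18 h the values were 1.76, 1.03 and 1.74, and at 24 h 2.13, 1.64 and 1.77. At 48 h they were 2.33, 3.47 and 3.05, at 148 h 2.10, 1.70 and 2.37, and at 296 h 1.23 and 1.77. The 8 late arrays all stood above the 9 early ones, and the arrays of 18 and 24 h overlapped with the late ones. The fitted log2 ratio of probe 1D09 was 1.44 ± 0.19 (SE, n = 3, adjusted p = 0.000223) at 18 h, 1.80 ± 0.21 (adjusted p = 5.66e-05) at 24 h, 2.88 ± 0.37 (adjusted p = 0.000241) at 48 h and 2.04 ± 0.43 (adjusted p = 0.00724) at 148 h. The fold at 48 h was 7.36. At 296 h the fitted value was 1.50 ± 0.51 (n = 2, adjusted p = 0.27, and 0.00492 with equal weights). The call at 148 h was lost with the array class as a block (1.46, adjusted p = 0.322) and without replicate 3 of that time (adjusted p = 0.0862).

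In the step from 12 to 18 h Vgf probe 1D09 differed by 0.86 ± 0.25 (log2 difference, SE, n = 6, limma adjusted p = 0.812). In that step 0% of the 4981 tested probes passed, with array or equal weights, and 255 had an unadjusted p under 0.05. At 18 h, where 2.07% of all probes passed, Vgf was the member gene called, on both of its probes. No neighbouring pair of times differed past the threshold for this probe, and the lowest array of 18 h (1.03) lay just below the highest of 12 h (1.06).

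The other Vgf probe, 52D09, had a lower mean log2 ratio than 1D09 at each time. It had log2 ratios of -0.08, 0.10 and 0.12 at 4 h, 0.35, 0.11 and -0.14 at 8 h and 0.07, 0.01 and 0.17 at 12 h. At 18 h it had 0.84, 0.97 and 0.89 and at 24 h 0.95, 1.05 and 0.41, all above every early array. At 48 h it had 0.28, 0.35 and 0.29, and at 148 h it had -0.46, 0.40 and 0.28. At 296 h the full array had 0.18 and the sparse array -4.28. The fitted log2 ratio at 18 h was 0.90 ± 0.23 (SE, n = 3, adjusted p = 0.0445), close to the limit. That call was lost with equal weights (adjusted p = 0.76), with median centring (0.0507), with the class block (0.721), with only the arrays of that time (0.148) and without any 1 of 20 arrays (up to 0.415). At 24 h the fitted value was 0.77 ± 0.25 (n = 3, adjusted p = 0.0796). Without replicate 1 of 296 h, which leaves the -4.28 alone at its time, late minus early of this probe became -1.36, and without replicate 2 it was 0.12.

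Probe 1D09 was above probe 52D09 on 22 of 23 arrays. The median gap between them was 0.47 on the 9 early arrays, 0.89 on the 6 arrays of 18 and 24 h and 2.33 on the 8 late arrays. Over the 107 genes that had exactly 2 probes and at least 5 shared early and 5 shared late arrays, the median gap was 0.31 early and 0.58 late. Vgf had the seventh widest late gap of the 107. Since the probe sequences were not used here, the part of the transcript that each probe reads is not given, and a statement on Vgf from 48 h on holds for 1 probe only. With the mean of both probes late minus early was 0.49 (adjusted p = 0.219).

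**Figure D2:**
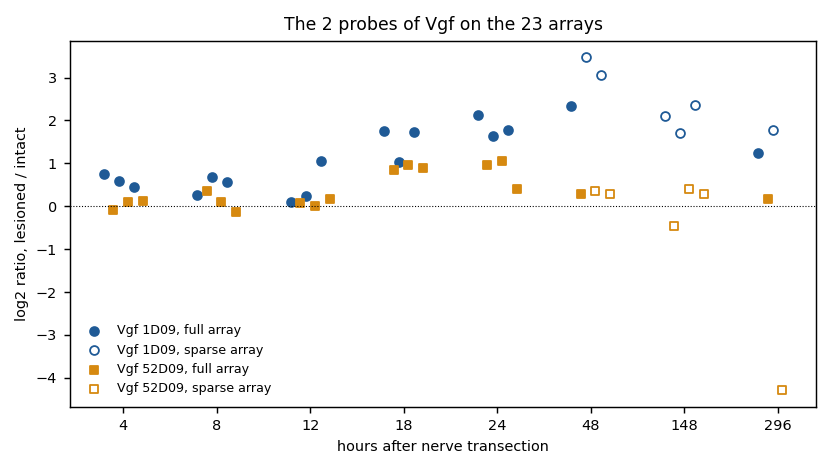
Log2 ratio of lesioned over intact for the Vgf probes 1D09 and 52D09 on each of the 23 arrays (vertical axis) at each time after the cut (horizontal axis, hours). Each point is 1 array, circles for 1D09 and squares for 52D09, filled for full and open for sparse arrays. At 18 h all arrays of both probes lie at 0.84 or above, and at 48 h probe 1D09 has its highest array at 3.47 while 52D09 lies between 0.28 and 0.35.

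Vip, whose peptide relaxes smooth muscle and raises cAMP in target cells, had high values on single arrays of 8 and 296 h. On all 3 arrays of 148 h it had at least 1.37. Its log2 ratios were 0.37, 0.95 and -0.19 at 4 h, 0.56, 3.06 and -0.04 at 8 h and 0.29, 0.19 and 0.39 at 12 h. They were 0.18, 0.08 and 0.56 at 18 h, 0.13, 0.33 and 0.28 at 24 h and 0.91, 0.64 and -0.06 at 48 h. At 148 h Vip had 3.38, 1.37 and 1.75, and at 296 h 0.83 on the full array and 4.80 on the sparse one. The 8 late and 9 early arrays overlapped, and 2 late arrays were above all early ones. The fitted log2 ratio was 1.92 ± 0.84 (SE, n = 3, adjusted p = 0.184) at 148 h and 2.82 ± 1.0 (n = 2, adjusted p = 0.286) at 296 h. With equal weights for all arrays both were called (2.17, adjusted p = 0.00895, and 2.82, adjusted p = 0.0222). Late minus early was 1.18 ± 0.55 (n = 17, adjusted p = 0.22), with a 95% interval of 0.03 to 2.32. It passed without replicate 2 of 8 h, the array at 3.06 (1.49, adjusted p = 0.0333). Without replicate 1 of 296 h, which leaves the 4.80 alone at its time, late minus early was 1.84.

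Adcyap1, the gene of PACAP, a peptide of the VIP family, was slightly lower at the late times. It had log2 ratios of 0.57, 0.01 and -0.02 at 4 h, -0.32, 0.26 and 0.04 at 8 h and 0.28, 0.26 and 0.43 at 12 h. At 18 h it had -0.06, -0.43 and -0.22, and at 24 h -0.09, 0.33 and 0.10. At 48 h the values were -0.47, -0.19 and -0.92, at 148 h -0.58, -0.70 and -0.60 and at 296 h -0.45 and -0.87. All 8 late arrays were below 0, and 7 of them were below every early array. Late minus early was -0.73 ± 0.19 (log2 difference, SE, n = 17, adjusted p = 0.0343), or 1.65-fold lower. No single time was called, with fitted values of -0.45 ± 0.25 (adjusted p = 0.377) at 48 h and -0.64 ± 0.29 (adjusted p = 0.203) at 148 h. With equal weights both were called (0.0434 and 0.0107). On full arrays the difference was -0.61 (adjusted p = 0.181), and leaving out any 1 of 8 arrays brought the adjusted p above 0.05, to at most 0.0717.

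Cck, the cholecystokinin gene, was below equal signal on most arrays from the start. It had log2 ratios of -0.98, -0.32 and -0.67 at 4 h, -0.77, -0.01 and -0.42 at 8 h and 0.20, -0.27 and -0.32 at 12 h. At 18 h it had 0.07, 0.01 and -1.32, and at 24 h -1.32, -0.70 and -0.67. The values at 48 h were -1.73, -1.53 and -1.09, those at 148 h -0.59, -1.64 and -1.40, and the 1 array at 296 h had -0.01. All 7 late arrays were below 0 and 5 were below every early array, so the periods overlapped. The fitted log2 ratio was -0.82 ± 0.22 (SE, n = 3, adjusted p = 0.0328) at 24 h and -1.54 ± 0.39 (n = 3, adjusted p = 0.0342) at 48 h, or 1.77-fold and 2.91-fold lower. At 148 h it was -1.34 ± 0.45 (n = 3, adjusted p = 0.0756, and 0.00299 with equal weights). Both calls were lost without any 1 array of their own time (adjusted p up to 0.148 and 0.309) and with the class block (0.271 and 0.163). The call at 24 h was also lost with equal weights (0.105) and on full arrays (0.0717). Set against the early times, 48 h differed by -1.11 ± 0.40 (n = 12, adjusted p = 0.235), so the lower ratio of Cck was not shown to be a change over time.

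Late minus early set the mean of 48, 148 and 296 h against the mean of 4, 8 and 12 h, a comparison in which a dye effect of a probe cancels if it is constant. It was tested for 5 of the 7 probes, since Gal and Cck had 1 array at 296 h. Of these 5, 3 passed, Npy and Vgf probe 1D09 higher and Adcyap1 lower, where 4.98% of the 2327 tested probes passed (3.65% higher, 1.33% lower). Npy had 4.41 ± 0.27 (log2 difference, SE, n = 16, adjusted p = 1.96e-08), the highest of all 2327. Vgf probe 1D09 had 1.60 ± 0.28 (n = 17, adjusted p = 0.00319), the sixteenth highest. Vgf probe 52D09 had -0.62 ± 0.34 (n = 17, adjusted p = 0.311). The late and early arrays did not overlap for Npy, Gal and Vgf probe 1D09, each with the late arrays higher. Of 3413 probes with enough arrays, 0.703% were separated in that direction.

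Gal could be compared with the early times on single late times and on the full arrays. It differed by 4.47 ± 0.41 at 48 h (log2 difference, SE, n = 12, adjusted p = 4.04e-05) and by 5.09 ± 0.53 at 148 h (n = 11, adjusted p = 6.89e-05), where 0.956% and 3.77% of probes passed. On the full arrays alone late minus early was 3.26 for Gal, 3.39 for Npy and 1.24 for Vgf probe 1D09 (n = 11 each). The full late arrays were replicate 1 of 48 h and replicate 1 of 296 h. No late time had a second array there, so the spread came from the other times. Over all arrays Vgf probe 1D09 lost its late minus early call after scaling to equal spread (0.83, adjusted p = 0.0912). It was also lost with the class block (1.06, adjusted p = 0.976), under which 0.129% of all probes passed. With the class block Npy had 3.76 (adjusted p = 0.000987). The moderated F-test of equal means at all times called Npy (adjusted p = 7.02e-07) and Vgf probe 1D09 (adjusted p = 0.00944) of the 5 probes tested, with 3.57% of all probes past the threshold. For Vgf this call was lost on the full arrays (adjusted p = 0.103), after scaling (0.0624) and with the class block (0.108).

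**Figure D3:**
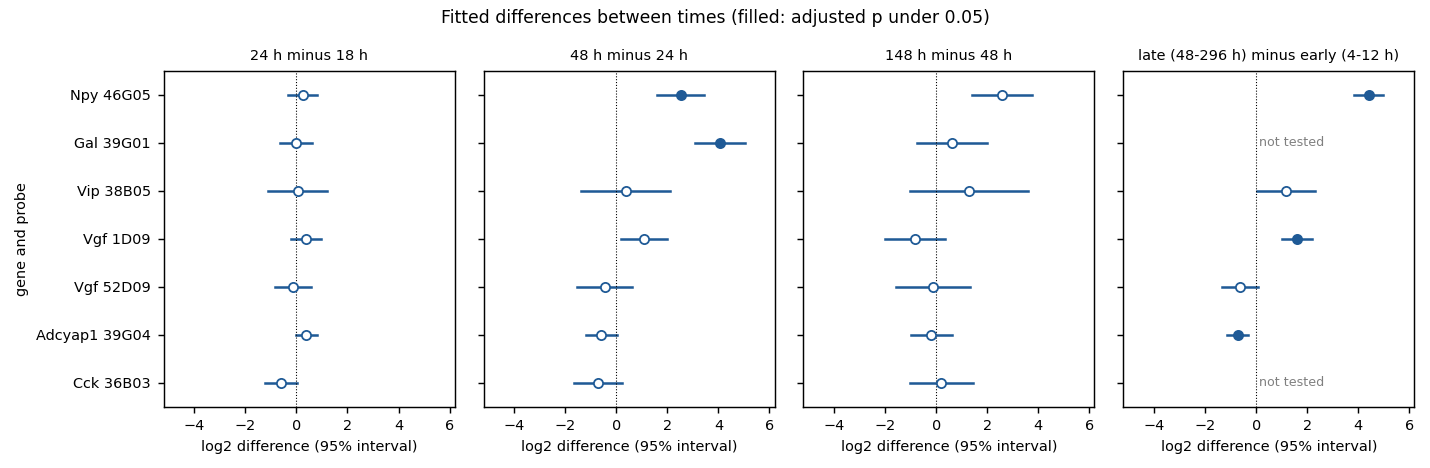
Fitted log2 differences (horizontal axis, points with 95% intervals as bars) for the 7 probes (vertical axis), in panels for 24 minus 18 h, 48 minus 24 h, 148 minus 48 h and late minus early. Filled points are past an adjusted p of 0.05, and probes without enough arrays are marked as not tested. Gal at 4.07 and Npy at 2.53 are filled for 48 minus 24 h, and Npy at 4.41, Vgf probe 1D09 at 1.60 and Adcyap1 at -0.73 for late minus early.

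Of 13 receptor genes of these peptides on a list written from general knowledge, 11 had a probe, and 5 of those were tested in late minus early. Npy1r, a neuropeptide Y receptor of sensory neurons, was higher by 0.93 ± 0.23 (log2 difference, SE, n = 17, adjusted p = 0.0279), where 4.98% of all probes were called. No receptor was called lower. At an unadjusted p under 0.05 there were 2 receptors, 1 higher and 1 lower. The list's median was 0.10, beside 0.04 over all probes tested. At 148 h Npy1r was higher by 1.68 ± 0.35 (log2 ratio, n = 3, adjusted p = 0.00743), and Adcyap1r1, the PACAP receptor, was lower by 2.37 ± 0.66 on 2 arrays (adjusted p = 0.0341). Vipr2, a receptor for both VIP and PACAP, was lower at 4, 18 and 24 h, with log2 ratios of -0.81, -0.71 and -0.72. None of those 3 calls held with equal weights (adjusted p = 0.14, 0.34 and 0.0703).

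Among other peptide precursors, no probe that could be tested in late minus early rose as Npy did. Of 57 listed genes 44 had a probe, in all 46, of which 15 were tested in late minus early. None was higher and 2 were lower, and at an unadjusted p under 0.05 none and 4 were. The list median was -0.30. At 48 h 0 of 41 tested probes were higher and 2 lower, and at 148 h 1 and 3 of 24. Among all probes 3.96% and 8.75% were called at these times. Of the probes not tested in late minus early, Sct had fitted log2 ratios of 1.28 at 48 h and 3.68 at 148 h, without a call. Nppa, also not tested there, had -2.11 at 148 h. Calca, the CGRP precursor, was lower by 0.89 ± 0.23 on probe 35C05 (log2 difference, SE, n = 17, adjusted p = 0.0343), and Tac1, the substance P precursor, by 0.86 ± 0.20 (n = 17, adjusted p = 0.0198). The other Calca probe, 52C03, had -0.45 in late minus early without a call (limma adjusted p = 0.079). At 148 h Calca was lower on both probes (log2 ratio -1.60 and -0.89) and Tac1 had -1.41, while Ghrh, the growth hormone-releasing hormone gene, had 2.49 ± 0.65 (n = 3, adjusted p = 0.0228). At 48 h Tac1 had -1.01 and Nppa, the atrial natriuretic peptide gene, -1.93 on 2 arrays. At 12 h the gut peptide gene Gip had -1.58 on probe 36H04 and -0.06 on its other probe, 35A10. The call of probe 36H04 did not hold with equal weights (limma adjusted p = 0.388).

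Of 30 listed genes of peptide processing and secretory granules, 28 were on the array, and 1 of 21 probes tested in late minus early was higher and none lower (median 0.06), a share near the 4.98% called among all probes. That probe was Ptprn2, a membrane protein of dense-core vesicles, with 1.38 ± 0.32 (log2 difference, SE, n = 17, adjusted p = 0.0188) and a log2 ratio of 2.72 at 148 h. The protease gene Ctsl was lower at 24 h (-1.06). Of 44 listed cytokine, neurotrophin, kinase and transcription factor genes, 32 were on the array, and 0 of 16 tested probes passed in late minus early with limma (median -0.07), with 3 at an unadjusted p under 0.05 and 2 called with equal weights. Atf3, a transcription factor induced by axon injury, was higher at 8, 12, 18 and 24 h with log2 ratios of 1.36, 1.53, 2.51 and 2.22, before the first call of Npy or Gal. Fosl2, an AP-1 subunit, was lower at 4 and 8 h (-2.08 and -1.26). The receptor gene Ret was lower on probe 28H11 at 12 h (-0.83), and its other probe, 35F03, had -0.40 without a call. Prkacb, a catalytic subunit of the cAMP-dependent kinase, was lower at 24 h (-1.81). The calls of Ret and of Fosl2 at 8 h did not hold with equal weights (adjusted p = 0.569 and 0.187). Lists were chosen with earlier results of these data known, so their counts are descriptions.

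**Figure D4:**
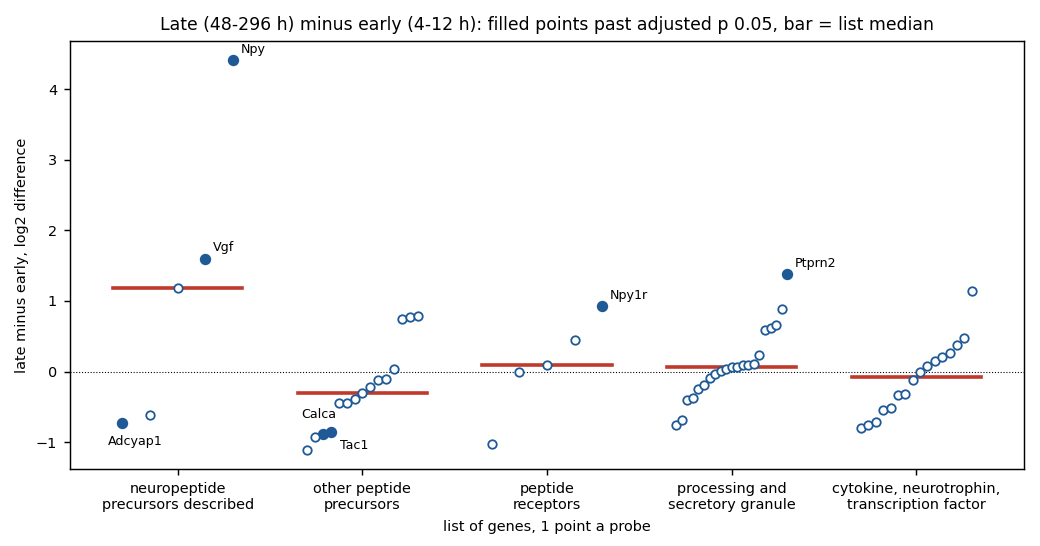
Late minus early (log2 difference, vertical axis) of each tested probe in 5 gene lists (horizontal axis), with the list median as a bar and probes past an adjusted p of 0.05 filled and named. Npy at 4.41 stands alone at the top, and the medians run from -0.30 for the other precursors to 1.18 for the 5 tested member probes.

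The probes most like each member over the arrays were found by Pearson correlation of the log2 ratio over at least 15 shared arrays. These are descriptions over arrays that share times, dyes and the sparse class. Npy was most like Naa35 (r = 0.94, n = 22), an N-acetyltransferase subunit whose probe 46G09 carries an identifier close to that of Npy (46G05), then Tuba1b, an alpha-tubulin (0.92, n = 22), and Gal (0.92, n = 20). Gal was most like Timp1, a metalloproteinase inhibitor (0.93, n = 21), Npy and the heat shock factor gene Hsf2 (0.92, n = 19). Vgf probe 1D09 was most like Hspb1, a small heat shock protein (0.92, n = 23), Atf3 (0.84, n = 17) and Stmn4, of the stathmin family (0.84, n = 23). Probe 52D09 was most like Kcnc1 (0.90, n = 22), a potassium channel gene, F2rl2 and Sardh, with no gene shared between the lists of both Vgf probes. This probe has 1 array at -4.28, and a Pearson correlation is sensitive to such a value. By ranks (Spearman) the Vgf probes correlated at 0.33. Probe 52D09 and Vip had -0.29 by ranks, beside a Pearson correlation of -0.74. Across the members Npy and Vip correlated at 0.69 (n = 22), Npy and Adcyap1 at -0.76 (n = 22), Gal and Vip at 0.22 (n = 21) and the Vgf probes with each other at 0.02 (n = 23). Vip was most like Npffr1, Cacnb4 and Pcdha10 (0.85 each, n = 17 to 19). For Adcyap1 the closest were Fau and Cpb1 at 0.79 and Grpr at 0.78, and for Cck they were Cyss at 0.81, Ghrhr at 0.78 and Pla2g10 at 0.77.

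Some markers of sensory neurons and macrophages differed between late and early arrays. Ratios hold no absolute level, so the presence of a cell type was not read from them. Of 13 sensory neuron probes, the median log2 ratio of an array lay between -0.27 and 0.18 on the early arrays. On the late ones it lay between -1.14 and 0.00. In late minus early 4 of 12 tested probes were lower, where 1.33% of all probes were. They belonged to Scn10a, Calca (35C05), Tac1 and Nefl (52A12), of which Calca and Tac1 are also on the precursor list. The other probes of Calca and Nefl, 52C03 and 27F06, had -0.45 and -0.37 without a call (limma adjusted p = 0.079 and 0.277). On the first day 2 markers of this list were called in opposite directions, Nefh higher at 12 and 24 h (log2 ratio 0.61 and 1.19) and Uchl1 lower (-0.91 and -1.23). With equal weights both calls at 12 h were lost (adjusted p = 0.473 and 0.335). Of 7 macrophage probes 2 were tested in late minus early and both were higher, where 3.65% of all probes were. C1qb was higher by 2.12 ± 0.39 (log2 difference, SE, n = 16, adjusted p = 0.00567) and Lyz2 by 1.77 ± 0.30 (n = 16, adjusted p = 0.00319). Lyz2 had fitted log2 ratios of -0.95, -0.67 and -0.56 at 4, 8 and 12 h. At single times C1qb was called higher at 48 and 148 h, Lyz2 at 148 h and Cd53 at 12 h, and Lyz2 lower at 4 h. With equal weights the calls of Cd53 and of Lyz2 at 4 h were lost (limma adjusted p = 0.376 and 0.204). The array medians of the macrophage list were -0.17 to 0.22 early and 0.08 to 2.26 on the 7 late arrays with a value. Of 8 Schwann cell probes 1 of 6 tested in late minus early was lower (Mbp). Of 12 tested satellite glia, fibroblast, muscle and mast cell probes none passed there with limma, with 2 at an unadjusted p under 0.05 and 1 called with equal weights. At single times Mag probe 33A02 was higher (0.97, 1.09 and 1.49 at 4, 8 and 48 h), as were Prx and Pmp22 at 12 and 24 h and Dcn at 12 h (0.54). The other Mag probe, 32H06, had -0.07, -0.17 and -0.35 at 4, 8 and 48 h. Lower were S100b probe 52D05 (-0.77), Glul (-0.77) and Ckm (-0.89) at 24 h and Cpa3 at 148 h (-3.98 on 2 arrays). The other S100b probe, 35H08, had 0.07 at 24 h. Among these calls only Mag probe 33A02 at 48 h and Cpa3 at 148 h held with equal weights. Sympathetic neurons also make neuropeptide Y. Of their markers Th and Slc6a2 had probes, neither called at any tested time, with array medians of -0.19 to 0.38 early and -1.37 to 1.78 on 5 late arrays. The part of these cells in the peptide ratios was not tested.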

How the data were processed

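Two-colour spotted oligonucleotide arrays with dendrimer labelling were used. The authors deposited 1 linear ratio per probe and array, with array medians near 1. Scanner software, background correction and normalization are not given in the sources used here, no intensities were used, and signal over background is unknown, so the number of arrays limits the precision. Its direction is not stated and was read from the dye labels, with lesioned RNA as numerator. No array exchanged the dyes, so a dye effect of a probe adds to every single time. The deposited ratio was converted to log2 without an offset.

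The series has 5088 probes, of which 4423 carry 1 symbol, 2 several and 663 none. All 7 member probes matched RefSeq by gene identifier. Means per time were fitted over all 23 arrays with limma 3.58.1 in R 4.3.3 with array weights, on probes with at least 2 arrays at each time of a comparison. Where a setting left a time with 1 array, that array was still tested, with a spread estimated from the other times. Tests were two-sided with Benjamini-Hochberg adjustment over all tested probes. Array weights were the main setting because sparse arrays (over 200 missing probes) spread more. The fit was tested on simulated data. 1 array titled 296 h has 294 h as its labelled time and was counted with 296 h. No 2 arrays were duplicates, with at most 0.0556% identical values. No pairing of arrays by replicate number was seen across times, in a check too weak to tell whether they shared animals or a batch.

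Named were all member probes, members of the 4 lists of receptors, other precursors, processing genes and inputs past the threshold in late minus early or at a single time, some cell type markers chosen after their values were seen, and the 3 probes most like each member. Also named were Sct, which had no call, and other probes of some named genes. The members, lists and settings were chosen with earlier results of these data known. Alternatives were equal weights, median centring, scaling, robust variance, full arrays only, the array class or replicate number as a block, at least 20 arrays per probe, each array left out, only the arrays of a time, the methods' t-test, the mean of probes and each late time alone.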

Additional observations from a re-analysis of the deposited data

Results flagged for a closer look

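5 differences between times passed a test of the difference itself. Npy and Gal differed between 48 and 24 h by log2 2.53 (adjusted p = 0.0185, 2 of 2 arrays of 48 h above all of 24 h) and 4.07 (adjusted p = 0.000547, 3 of 3 arrays). In late minus early Npy had 4.41 (adjusted p = 1.96e-08, 7 of 7 late arrays above the early ones), Vgf probe 1D09 had 1.60 (adjusted p = 0.00319, 8 of 8) and Adcyap1 had -0.73 (adjusted p = 0.0343, 7 of 8 below the early ones). No explanation was tested.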

How the results depend on the processing

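Over 1425 recomputed values for the results given here, 1281 kept their direction and side of the threshold and 11 changed sign, none of them past the threshold in either setting. Some results kept their calls in every setting fitted over several times, and with each array left out, that kept at least 2 arrays with a value at each time compared. These were Npy at 48, 148 and 296 h and in late minus early, Gal at 48 and 148 h and Vgf probe 1D09 at 18, 24 and 48 h. Npy at 48 h and in late minus early could not be tested without replicate 1 or 2 of 48 h, and Gal at 148 h not without replicate 2 or 3 of that time. On full arrays 48 h had 1 array, with 2.51 for Npy, 4.28 for Gal and 2.33 for Vgf probe 1D09. With either array of 296 h left out Npy had 3.98 or 5.34 there. Values from 1 array hold no spread of their own time and were not counted. Late minus early of Vgf probe 1D09 was not called after scaling (0.83), with the class block (1.06), at 148 h alone (1.50), at 296 h alone (0.96) or with the mean of its probes (0.49), and that of Adcyap1 was not called on full arrays (-0.61), with the class block (-0.60) or at 48, 148 or 296 h alone (-0.59, -0.78 and -0.81). Vgf probe 52D09 turned positive in late minus early on full arrays (0.13), with the class block (0.78), at 48 h and 148 h alone (0.21 and 0.08) and in the mean of the probes (0.49), and at 296 h on full arrays (0.18). In 48 minus 24 h Vip had -0.57 and Vgf probe 52D09 0.73 with the class block, and Vgf probe 1D09 had -0.21 after scaling. The causes were not tested.

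Of the counts of calls, 12 at single times became 0 when each time was fitted from its own arrays and 0 with the methods' t-test after Benjamini-Hochberg adjustment (14 unadjusted). Late minus early fell from 3 to 1 with the class block, and the steps and the F-test from 2 to 1 each, both after scaling and with the class block. With each array left out the counts were 9 to 17 at single times, 1 to 5 in late minus early, 1 to 3 in the steps and 1 to 5 in the F-test. Without replicate 1 of 48 h late minus early had 1 call, with Npy no longer tested. The highest counts at single times, in late minus early and in the F-test came without replicate 1 of 296 h. That setting leaves 1 array at 296 h. The steps had 1 call without replicate 2 or 3 of 24 h and without replicate 1 or 2 of 48 h. Late minus early ranged over 4.18 to 4.68 for Npy, 0.51 to 1.84 for Vip, 1.51 to 1.73 and -1.36 to 0.12 for Vgf probes 1D09 and 52D09 and -0.81 to -0.66 for Adcyap1. Vgf probe 52D09 at 296 h ranged from -4.28 to 0.18.

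No pairing by replicate number was seen. Same-numbered arrays of different times had a median correlation of deviations of -0.00462 over 77 pairs, and 6 of 23 arrays correlated best with their own number. With 2 or 3 arrays a time this check cannot tell whether same-numbered arrays shared animals or a batch. With a replicate block 11 calls at single times remained in number, the lost one being Vgf probe 52D09 at 18 h (0.90, adjusted p = 0.0672), and late minus early was 4.37 for Npy, 1.61 for Vgf probe 1D09 and -0.75 for Adcyap1. Over all probes the calls in late minus early were 116, and 263 with equal weights, 48 after scaling and 3 with the class block. At 48 and 148 h they were 177 and 279, and 698 and 916 with equal weights. Few arrays per time, missing values at 48 to 296 h and a single dye orientation limit all single-time values.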
